A study of Arabidopsis thaliana with 12 samples.

Results

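The broad MAC3A regions over gene bodies are stretches of the Arabidopsis thaliana genome where peaks of the protein MAC3A run on for at least 800 bp and at least 1 summit, the point of highest enrichment in a peak, lies inside a protein-coding gene. They were found by merging the peak intervals of 6 MAC3A libraries on chromosomes 1 to 5 wherever intervals overlapped by at least 1 bp. Of the 2917 union regions so made, 2129 held a summit in a protein-coding gene body, and 297 of these met the length limit. They made up 10.2% of all union regions and 24.3% of their total length. Length and position chose the members, so neither is a finding in itself, and the lengths of the union regions are given as a description with no test.

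MAC3A belongs to the MOS4-associated complex, which corresponds to the Prp19 complex of yeast and animals and acts in pre-mRNA splicing. It carries a U-box domain of the kind found in ubiquitin ligases. Splicing of plant transcripts takes place largely while the gene is being transcribed, so that splicing proteins can be crosslinked to chromatin along transcribed genes. A peak caller reports such signal as 1 wide interval, as several intervals, or as 1 interval with several summits, depending on how even it is. The comparison made here asks how far such regions reached in blue light and in the dark.

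The compared libraries were 3 blue-light and 3 dark MAC3A libraries from whole seedlings whose genotype is given as Columbia-4. Per the growth notes, the plants expressed MAC3A-GFP and were grown for 6 days, with plants expressing GFP only as the control. Since these notes name blue light everywhere, only the titles tell the conditions apart, and the antibody is given as anti-FLAG although the notes speak of GFP. The sources used here do not give the promoter behind MAC3A-GFP or the number of lines. The 6 control samples were not analysed here. Nothing in the labels says that the 3 libraries of a condition came from separate cultures, so the spread between them may be technical.

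The blue lists held 1505, 1820 and 1578 peaks and the dark lists 1285, 1225 and 1169. The depth behind these lists is unknown. Among summits with a −log10 p between 9.5 and 10.5, the median fold enrichment was 3.37 ± 0.0599 in blue light and 3.86 ± 0.172 in the dark (SD, n = 3 each). The blue lists thus reached the same p at a lower fold. The part of this and of the longer blue lists in the comparisons below was not tested. The file code of dark replicate 3 carries the mark of dark replicate 2, but the length under peaks differed between these libraries in 256 of the 297 regions.

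The 297 regions ran from 800 to 4892 bp, with a median of 1002 bp and quartiles of 882 and 1255 bp. Regions of at least 1500 bp numbered 36, and 8 reached 2000 bp. The gene-body regions under the limit numbered 1832, with a median of 381 bp. Lengths were continuous across the limit. Just inside it lay AT1G21400 and the dehydration gene ERD7 (AT2G17840) with 800 bp each and the formin gene FH8 (AT1G70140) with 801 bp. Just outside lay regions over the cytochrome P450 gene CYP71B28 (AT1G13090) with 799 bp, over PATL2 (AT1G22530) with 797 bp and over CNI1 (AT5G27420) with 796 bp.

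The regions held summits in the bodies of 324 genes, 1.18% of the 27444 protein-coding genes in the RefSeq table. Of the regions, 268 had summits in 1 gene, 27 in 2 genes and 2 in 3 genes. The genes had a median length of 2106.5 bp, against 2078 bp for all protein-coding genes and 2320 bp for the 1738 other genes with a summit of a narrower region. The genes of the set were thus close to the ordinary length. The regions lay close to the genes themselves: a median of 99.3% of a region was inside the body of the summit's gene, and 144 regions (48.5%) were wholly inside it. Among the RNA genes under them, 8 long noncoding RNA genes and 3 tRNA genes were the most frequent kinds. These counts have no share of all RNA genes beside them, and the rule asked for a summit in a protein-coding gene.

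Most broad regions were long in a single library, not only after merging. In 246 of the 297, at least 1 library had a single peak of 800 bp or more, and in 44 all 6 libraries did. In the other 51 regions the length came from shorter peaks placed side by side or shifted between libraries. A broad region could also have the simplest form, 1 summit in every library, and this held for 54 regions with a median length of 959.5 bp. In these 54 the summit stayed in place, with a median range of 45 bp over the 6 libraries (14 to 136 bp). The mean blue and the mean dark position differed by a median of 10.5 bp.

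Regions with more summits were lower. In blue light, the regions with 1 summit had a median highest fold of 4.33, 5.14 and 4.71 in replicates 1 to 3, and those with 3 or more summits 3.29, 3.03 and 3.10. In the dark the values were 5.51, 5.57 and 5.60 with 1 summit and 3.83, 3.16 and 4.53 with 3 or more. Fold enrichment is the authors' value for each peak, and each list has its own scaling, so folds of blue and dark lists are given as listed and no change is read from them. In all 6 libraries the regions with 1 summit stood higher, and the regions with 3 or more summits were longer, with median lengths under peaks of 1264, 969 and 1233 bp against 718, 794 and 774 bp in blue light.

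**Figure D1:**
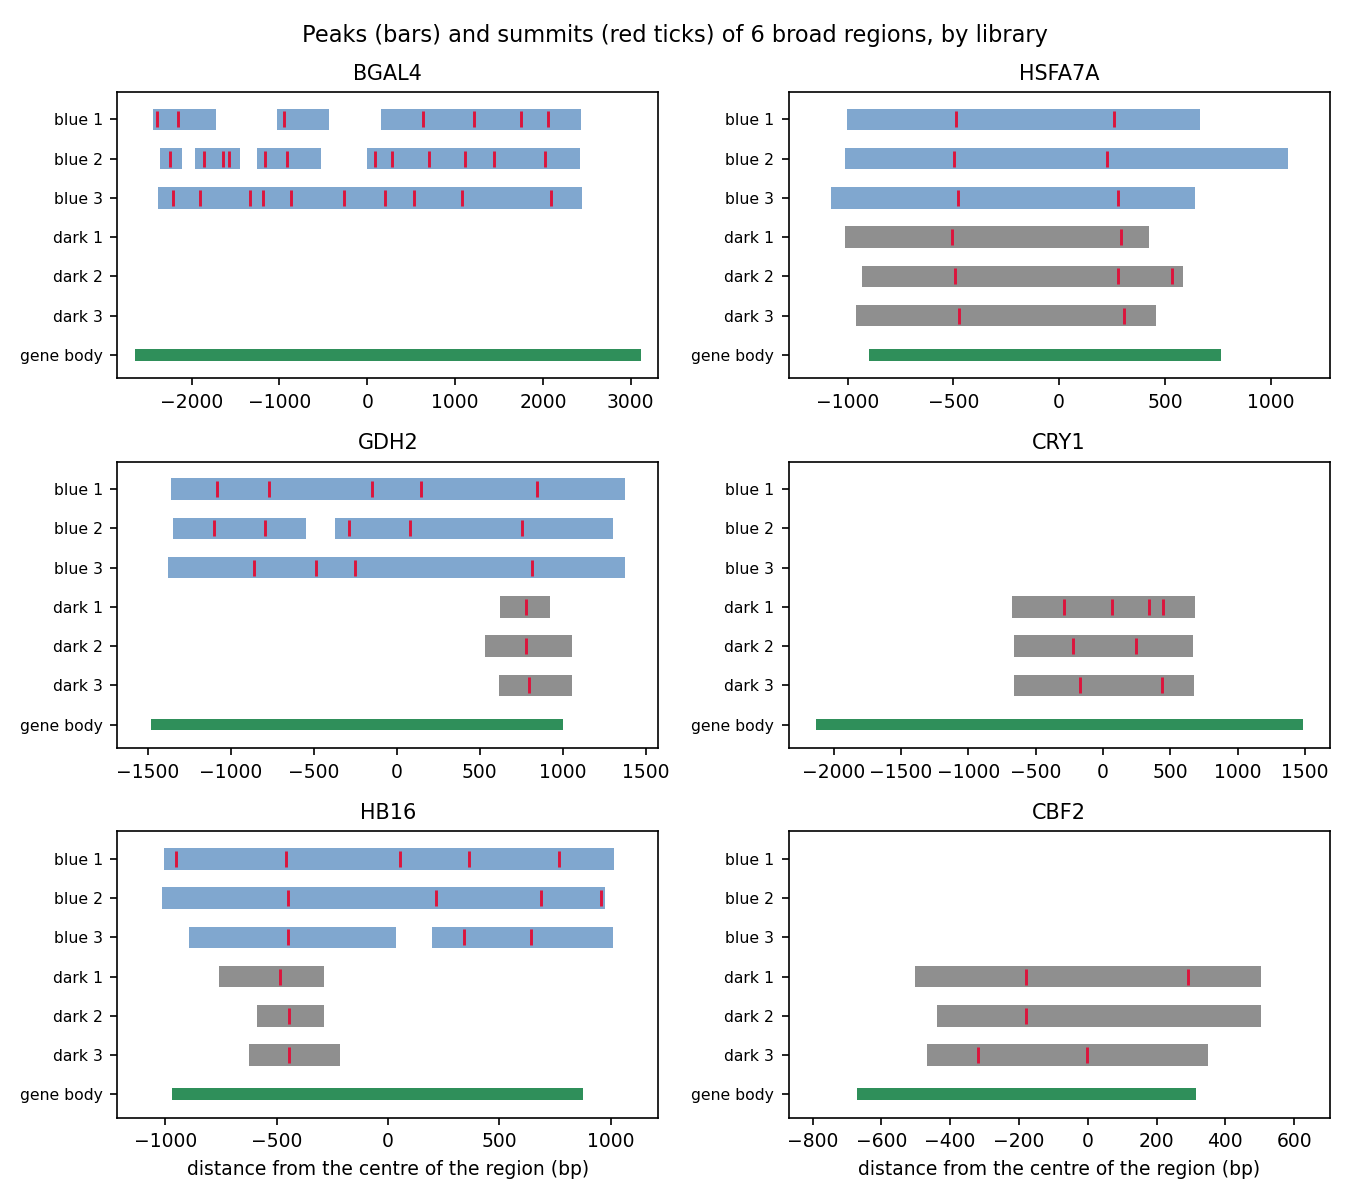
Peaks (bars) and summits (red ticks) of 6 broad regions in the 3 blue and 3 dark libraries, by distance in bp from the centre of the region, with the gene body in green. Blue peaks reached over most of BGAL4, GDH2 and HB16, HSFA7A kept its main summits in all 6 libraries, and over CRY1 and CBF2 no blue library and all 3 dark libraries had a peak in the region.

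The longest region lay over the beta-galactosidase gene BGAL4 (AT5G56870) on chromosome 5, from 23004110 to 23009001 (TAIR10). Peaks there covered 3594, 3908 and 4826 bp in the blue libraries and 0 bp in each dark library. They held 7, 12 and 10 summits in blue light, and the highest fold was only 3.90, 3.40 and 3.69. The signal was thus long, low and many-peaked, all of it inside the gene, of which 62.4, 67.8 and 83.7% was covered.

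The second region covered the glutamate dehydrogenase gene GDH2 (AT5G07440; chromosome 5, 2355864 to 2358618), whose enzyme releases ammonium from glutamate when carbon is short. Its length under peaks was 2736, 2477 and 2755 bp in blue light and 300, 522 and 441 bp in the dark. In the dark it was an ordinary narrow peak with 1 summit in each library, and in blue light the interval reached over the rest of the gene. The share of the gene body under peaks was 92.8 ± 4.53% in blue light and 15.4 ± 3.36% in the dark (SD, n = 3 each). HB16 (AT4G40060; chromosome 4, 18571192 to 18573222), a homeodomain-leucine zipper gene, had the same form, with 2020, 1992 and 1740 bp in blue light and 472, 300 and 412 bp in the dark. AT1G72510 (chromosome 1, 27303017 to 27305017) had 1576, 1987 and 1799 bp in blue light and 769, 702 and 800 bp in the dark. In these 3 regions every blue library lay above every dark library.

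Other long regions were long in both conditions. HSFA7A (AT3G51910; chromosome 3, 19264962 to 19267121), which encodes a heat shock factor, had 1670, 2091 and 1724 bp under peaks in blue light and 1434, 1519 and 1420 bp in the dark. Its main summit lay between 19265533 and 19265568 in all 6 libraries, with folds of 12.6 to 13.5 in the blue lists and 17.6 to 19.3 in the dark lists. A lower summit lay between 19266270 and 19266350 in all 6. The blue libraries were again above the dark ones, but the difference in share of the gene, 12.1 points, was small beside that of GDH2. The region over the C2-domain gene EHB1 (AT1G70800), AT1G70810 and AT1G70820 (chromosome 1, 26703406 to 26705717) reached across 3 genes. It had 1382, 2155 and 1571 bp in blue light and 1722, 1575 and 1617 bp in the dark, which overlap. AT3G03510 with the phospholipase C gene NPC3 (AT3G03520) had 1417, 1849 and 1933 bp in blue light and 1286, 1187 and 1173 bp in the dark, without overlap. AT1G04680 was the only one of the 10 longest with a lower mean in blue light, at 674, 855 and 819 bp against 820, 1567 and 1287 bp in the dark, and its groups overlapped.

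Of the 10 regions with the most summits over all libraries, with ties at 14 summits broken by length, 5 were among the 10 longest: BGAL4, EHB1 with its neighbours, GDH2, AT2G32150 and HB16. The others were MAPKKK19 (AT5G67080), a mitogen-activated protein kinase kinase kinase gene, the cytochrome P450 gene CYP71B23 (AT3G26210), AT3G04140, AT3G21330 and AT1G03050. MAPKKK19 had 3, 2 and 3 summits in blue light and 3, 1 and 4 in the dark.

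**Figure D2:**
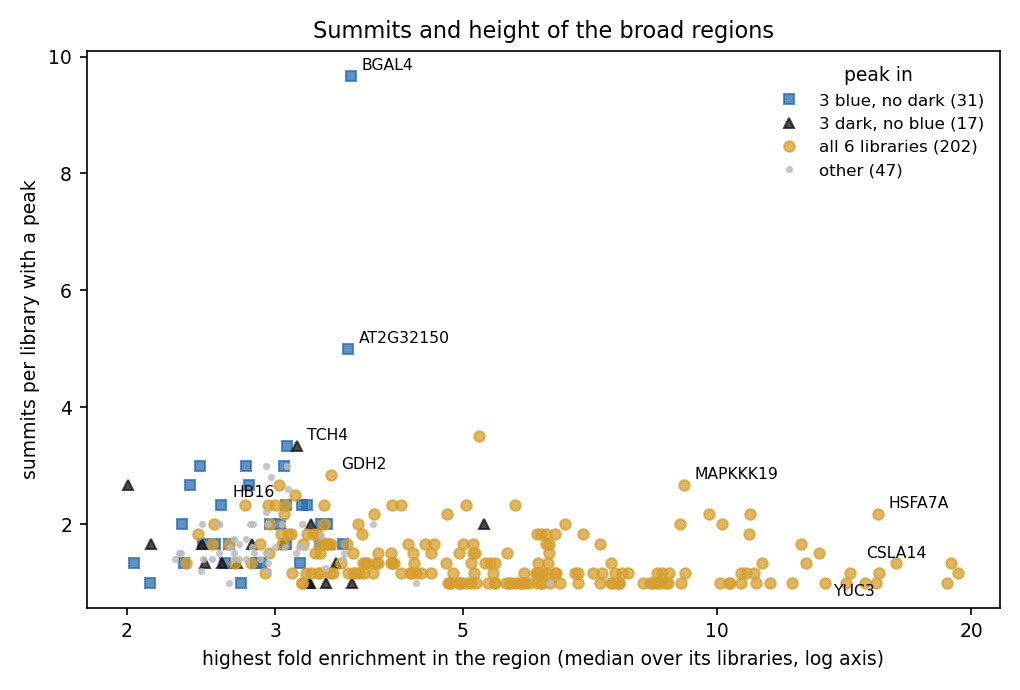
Each point is 1 of the 297 broad regions, with the highest fold enrichment (median over the libraries with a peak, log axis) on the x axis and the number of summits per library with a peak on the y axis. The 31 regions of blue libraries alone ran from 2.04 to 3.69 and the 17 of dark libraries alone from 2.01 to 5.30. The values of the 202 regions of all 6 libraries, up to 19.3, mix blue and dark lists, whose folds differ in scale.

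The share of a gene body under peaks counts every peak over the gene, also peaks outside the broad region. This share varied widely. Its mean over the 6 libraries had a median of 28.7% over the 324 genes, from 0.558% to 100%, and it was at least 50% in 51 genes and under 20% in 99. Among genes of at least 800 bp the highest was AT1G10220 (1200 bp), with 94.8, 93.2 and 92.8% covered in blue light and 100, 100 and 90.1% in the dark. HSFA7A followed with 95.6 ± 3.86% in blue light and 83.5 ± 5.17% in the dark (SD, n = 3 each). MAPKKK19 had 85.6, 88.6 and 80.5% in blue light, and 100, 43.3 and 100% in the dark, where replicate 2 stood far below the others. AT1G70810 averaged 80.9% over the 6 libraries.

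The next genes by share were AT4G39190 with 74.8%, the transcription factor genes MYB6 (AT4G09460) with 72.4% and GATA7 (AT4G36240) with 72.1%, ZCF37 (AT1G59590) with 71.5%, AT1G18980 with 71.1% and AT5G55340 with 70.0%. AT4G39190 was the exception in direction among these 6. Its body was covered to 71.8 ± 1.02% in blue light and 77.9 ± 3.01% in the dark (SD, n = 3 each), and the groups did not overlap. In the other 5 genes the groups overlapped. These 10 genes of highest share were 935 to 1666 bp long, below the median of 2106.5 bp.

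Summits of broad regions lay deeper in genes than those of narrower ones. With no strand in the gene table, the distance of a summit to the nearer gene end was taken, in percent of the gene's length. Its median was 23.1 ± 0.222% in blue light and 26.0 ± 0.619% in the dark for broad regions, and 11.5 ± 0.403% and 15.6 ± 0.484% for the narrower gene-body regions (SD, n = 3 each). In base pairs these were 502 ± 13.9 and 529.8 ± 12.4 for broad regions and 261 ± 7.65 and 334 ± 3.61 for narrower ones. Length and position are tied by the rule, since a long region with its summit near a gene end can leave the gene, so no test was made of broad against narrow. Between conditions, every blue library had a lower median than every dark library (a difference of -2.93 points, exact permutation test, two-sided, p = 0.10, n = 3 each). With a minimum fold of 3 the difference was -1.52 points. These values are for broad regions. In the narrower gene-body regions every blue library also lay below every dark one, with a difference of -4.03 points. Peaks of these same lists chose the regions, so the test is not independent of the choice. No lower p than 0.10 can come from 3 libraries against 3, here and below.

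More of the broad regions carried a peak in each blue library than in any dark one. They numbered 273, 273 and 272 in blue light and 246, 243 and 243 in the dark, a difference of 28.7 (exact permutation test, two-sided, p = 0.10, n = 3 each). Without blue replicate 2 the difference was 9.17, with lists cut to equal length 13.7 and with a minimum −log10 q of 5 it was 5, and a minimum fold of 3 turned the direction, to -6.67. Peaks of these same lists chose the regions, so the test is not independent of the choice. Of 161 broad regions defined from the dark lists alone, 160 ± 1.53 had a peak in the dark libraries and 141 ± 1.53 in the blue ones. Of 236 defined from the blue lists alone, 187 ± 0.577 and 232 ± 1.15 did (SD, n = 3 each). All 6 libraries had a peak in 202 regions (68%, against 18.3% of all 2917 union regions and 13.7% of the narrower gene-body regions). This share follows in part from the rule, since regions with peaks in more libraries have more chances to become long.

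The mean length under peaks lay higher in every blue library than in any dark one. It was 763, 823.5 and 800.003 bp in the blue libraries and 639, 623 and 622 bp in the dark ones, counting a region without a peak as 0. The difference was 167 bp, with group means of 795.5 ± 30.5 bp in blue light and 628 ± 9.48 bp in the dark (SD; exact permutation test, two-sided, p = 0.10, n = 3 each). It was 138 bp with lists of equal length and 82.2 bp with a minimum fold of 3. The rule chose the regions by the length of these same peaks, so the test is not independent of the choice. In regions defined from the dark lists alone the order was the reverse. There the dark libraries covered 82.5 ± 1.59% of the length and the blue ones 70.6 ± 1.59%. In regions defined from the blue lists alone the values were 53.9 ± 0.875% and 81.2 ± 3.29% (SD, n = 3 each). Where a library had a peak, the mean was 866.5 ± 33.5 bp in blue light and 765 ± 6.10 bp in the dark (SD, n = 3 each). Over the whole lists the median peak was 351 ± 5.53 bp in blue light and 364 ± 5.03 bp in the dark. The number of single peaks of at least 800 bp in a list was 152 ± 11.3 in blue light and 97.7 ± 7.23 in the dark, or 9.33 ± 0.643% and 7.96 ± 0.336% of the peaks.

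**Figure D3:**
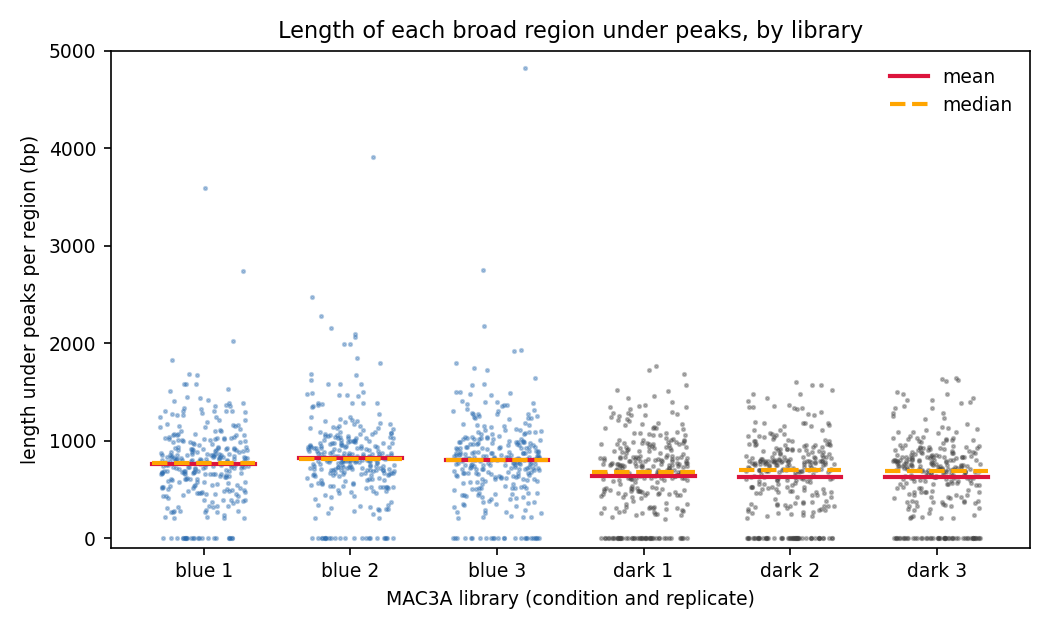
Length under peaks (bp) of each of the 297 broad regions in each library, with the mean (red) and the median (orange, dashed). The means of the blue libraries lie between 763 and 823.5 bp, above those of the dark libraries, and the highest points, of 2477 to 4826 bp, are the BGAL4 and GDH2 regions in blue light.

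The share of the gene body gave the same order. The median share of the gene body under peaks over the 324 genes was 29.2, 33.9 and 32.4% in the blue libraries and 27.4, 24.9 and 24.5% in the dark ones. The difference was 6.23 points, with 31.8 ± 2.37% in blue light and 25.6 ± 1.54% in the dark (SD; exact permutation test, two-sided, p = 0.10, n = 3 each). With a minimum fold of 3 the difference was 2.84 points. At least 50% of the body was covered in 73.7 ± 5.13 genes in blue light and 50.7 ± 5.51 in the dark (SD, n = 3 each). The number of summits per region with a peak was 1.51, 1.67 and 1.61 in blue light and 1.45, 1.34 and 1.42 in the dark (difference 0.195, exact permutation test, two-sided, p = 0.10, n = 3 each). This last difference depended on the lists. It was 0.0350 with a minimum −log10 q of 5, -0.0521 with lists of equal length and -0.0707 with a minimum fold of 3. Peaks of these same lists chose the regions and genes, so neither the test of the share nor that of the summits is independent of the choice.

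The length could also be read in lists that took no part in choosing the regions. Defined from the 3 blue lists alone, 236 regions met the same rule, and the dark libraries had a peak in 79.4 ± 0.245% of them and covered 53.9 ± 0.875% of their length (SD, n = 3). Of the 1445 narrower gene-body regions of the blue lists, the dark libraries had a peak in 38.1 ± 1.63% and covered 32.99 ± 1.23% of the length. Defined from the 3 dark lists alone there were 161 broad regions. The blue libraries had a peak in 87.8 ± 0.949% of these and covered 70.6 ± 1.59% of their length, against 52.7 ± 3.09% and 47.3 ± 2.57% for 1190 narrower ones. The blue libraries themselves covered 81.2 ± 3.29% of the length of the blue-defined broad regions. The dark libraries covered 82.5 ± 1.59% of that of the dark-defined ones, so each condition covered more of the regions it defined. Broad regions of either condition were thus found again in the other more often than narrower ones. Longer regions have more room to hold a peak. Broad regions also had higher folds, read here in regions defined from the blue and dark lists together. The median highest fold per library was 3.95 ± 0.0938 for broad and 2.80 ± 0.0293 for narrower gene-body regions in blue light. In the dark it was 5.02 ± 0.298 and 3.30 ± 0.0435 (SD, n = 3 each). The part of length and of fold in how often regions were found again was not tested.

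In 94 of the 297 regions (31.6%) the length under peaks was higher in every blue than in every dark library, and in 29 (9.76%) higher in every dark than in every blue library. Among all 2917 union regions these shares were 14.5% and 5.97%, and among the narrower gene-body regions 12.4% and 6.28%. Among the 202 regions with a peak in all 6 libraries, 49 were longer in every blue library and 9 in every dark library, and 144 overlapped. These counts have no background beside them, since the shares above are not limited to the 533 union regions with a peak in all 6 libraries. After GDH2, HB16 and AT1G72510, the LOB-domain gene LBD41 (AT3G02550) was an example of the 49. It had 1138, 844 and 894 bp in blue light and 620, 223 and 238 bp in the dark. The 9 regions longer in the dark included CYP707A3 (AT5G45340), an abscisic acid hydroxylase gene, with 1065, 1172 and 1163 bp in blue light and 1510, 1605 and 1475 bp in the dark. Its highest fold was 3.04, 3.14 and 2.99 in the blue lists and 13.3, 13.5 and 9.72 in the dark lists, each list with its own scaling. CYP707A1 (AT4G19230), of the same gene family, went the other way and was longer in every blue library. It had 1298, 1385 and 1283 bp in blue light and 1251, 1040 and 795 bp in the dark. The 9 also included the region over AT1G73530 and the nudix hydrolase gene NUDT21 (AT1G73540), which as a whole had 293, 425 and 267 bp in blue light and 949, 1164 and 773 bp in the dark. WRKY46 (AT2G46400), a stress-related transcription factor gene, had 530, 646 and 373 bp in blue light and 978, 686 and 710 bp in the dark. CYP707A3, CYP707A1 and WRKY46 were chosen after their values were seen.

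**Figure D4:**
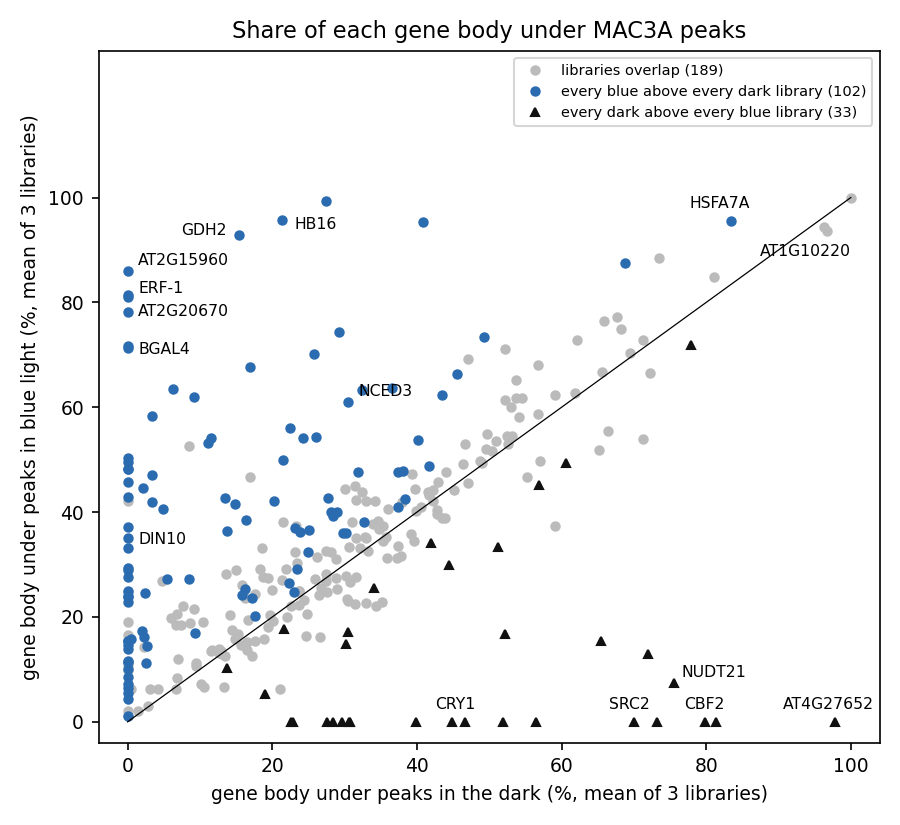
Mean share of the gene body under peaks in blue light (y axis) against the dark (x axis) for the 324 genes with a broad region, in percent. Blue points are the 102 genes with every blue library above every dark one and black triangles the 33 genes with the reverse. Points on an axis at 0 had no peak over the gene in that condition.

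A peak in each blue library and in none of the dark ones was found in 31 regions (10.4%, against 8.06% of all union regions and 7.53% of the narrower gene-body regions). Without blue replicate 2 there were 17, and with a minimum −log10 q of 5 there were 11. Their highest folds were low within each blue list, with medians of 2.95, 2.89 and 2.67 in replicates 1 to 3, against 4.58, 5.14 and 4.85 for the 202 regions of all 6 libraries in the same lists. They had more summits, 2.16, 2.42 and 2.35 per region in blue replicates 1 to 3, against 1.39, 1.51 and 1.44 in the regions of all 6 libraries. After BGAL4, the longest were AT2G32150 (chromosome 2, 13658925 to 13661314) with 1827, 2278 and 1918 bp and AT2G20670 (chromosome 2, 8911418 to 8913615) with 1449, 2068 and 2177 bp in blue light, both at 0 bp in each dark library.

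The dark-inducible gene DIN10 (AT5G20250; chromosome 5, 6835333 to 6837200), of the raffinose synthase family, had 1191, 1801 and 1324 bp in blue light and 0 bp in each dark library, at folds of at most 2.40. The ethylene response factor gene ERF-1 (AT4G17500) had 863, 1479 and 1278 bp and AT2G15960 1527, 820 and 1268 bp in blue light, again with 0 bp in each dark library. AT1G32700 had 761, 867 and 936 bp in its blue region and none in the dark. Another region over the same gene did have dark peaks, so that 49.9 ± 4.53% of its body was covered in blue light and 21.5 ± 4.37% in the dark (SD, n = 3 each). AT4G37608 with BT5 (AT4G37610), a gene for a BTB and TAZ domain scaffold protein, had 1036, 923 and 1410 bp in blue light and none in the dark. Outside this region, peaks of dark replicate 2 covered 18.7% of BT5. Chosen after their values were seen, BT2 (AT3G48360), of the same family, had 1307, 1052 and 1255 bp, and the dormancy-associated gene DYL1 (AT1G28330) 833, 1022 and 425 bp, in blue light alone.

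With a minimum fold of 3 no peak was left over DIN10, ERF-1 or AT2G20670. BGAL4, AT2G32150, GDH2 and HB16 kept groups that did not overlap with this limit, with a minimum −log10 q of 5 and with lists of equal length. By share of the gene, the largest differences with more in blue light were 86.0 points for AT2G15960, 81.4 for ERF-1, 81.0 for AT2G32150, 78.2 for AT2G20670, 77.4 for GDH2 and 74.3 for HB16. For AT2G15960 the blue libraries gave 100, 58.1 and 100%, and without the weaker peaks 1 of them had none over the gene, so the groups overlapped with a minimum −log10 q of 5, with a minimum fold of 3 and in the lists of equal length.

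A peak in none of the blue libraries and in each dark one was found in 17 regions (5.72%, against 3.57% of all union regions and 3.98% of the narrower gene-body regions). There were 10 without dark replicate 3, and 11 with a minimum fold of 3. As in the blue regions, the highest folds were low within each dark list, with medians of 2.77, 3.19 and 3.07 in replicates 1 to 3. The 202 regions of all 6 libraries had 5.94, 5.99 and 5.64 in the same lists. Summits per region were also more, at 1.65, 1.47 and 1.76, against 1.43, 1.32 and 1.39 in the regions of all 6 libraries. The 31 blue regions had a median length of 1022 bp and a maximum of 4892 bp, and the 17 dark ones 926 and 1360 bp. The longest lay over the cryptochrome gene CRY1 (AT4G08920; chromosome 4, 5725106 to 5726465), which encodes a blue-light receptor. It had no peak in any blue library, and peaks of 1360, 1334 and 1337 bp in the dark ones. The dark intervals nearly coincided and held 4, 2 and 2 summits, with a highest fold of 2.16, 1.65 and 2.01. They lay inside the gene. Together with separate dark peaks over the same gene they covered 46.0, 43.8 and 44.7% of it, and with a minimum fold of 3 only the separate peaks were left, over 7.71 ± 0.708% (SD, n = 3).

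AT1G18740 had 0 bp in each blue library and 930, 965 and 874 bp in the dark. SRC2 (AT1G09070), named for the regulation of its soybean relative by cold, had 0 bp in each blue library and 1171, 1067 and 1138 bp in the dark. The cold regulator gene CBF2 (AT4G25470; chromosome 4, 13015416 to 13016423) had 0 bp in each blue library and 1008, 942 and 819 bp in the dark. CBF1, CBF2 and CBF3 are similar neighbouring genes, and the sources used here do not say how reads that match more than 1 of them were counted. In the other named regions of this kind the blue libraries again had 0 bp each. In the dark, the touch-induced gene TCH4 (AT5G57560), a xyloglucan endotransglucosylase gene, had 986, 790 and 835 bp, and the late embryogenesis abundant gene LEA14 (AT1G01470) had 616, 494 and 881 bp. The calmodulin-like gene CML23 (AT1G66400) had 969, 697 and 765 bp and AT1G80810 898, 628 and 925 bp. TCH2 (AT5G37770), another calmodulin-like gene first found by touch, chosen after its values were seen, had 649, 735 and 476 bp. AT1G80810 was the only one of the 17 whose median highest fold over the dark libraries reached 5, at 7.30, 5.00 and 5.30.

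By share of the gene, the largest differences with more in the dark were -97.8 points for AT4G27652, -81.3 for CML23, -79.8 for CBF2, -73.2 for AT2G23120, -70.1 for SRC2 and -68.1 for NUDT21. AT4G27652, a gene of 684 bp, had no peak in the blue libraries, and the dark peaks covered 97.4, 96.1 and 100% of its body. NUDT21 was the only one of the 6 with peaks over the gene in blue light, at 6.12, 16.1 and 0% there and 79.1, 83.2 and 64.2% in the dark. With a minimum fold of 3 the groups overlapped for CBF2, CML23, SRC2 and TCH4, since some dark libraries lost their peaks, and no peak was left over AT1G18740.

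**Figure D5:**
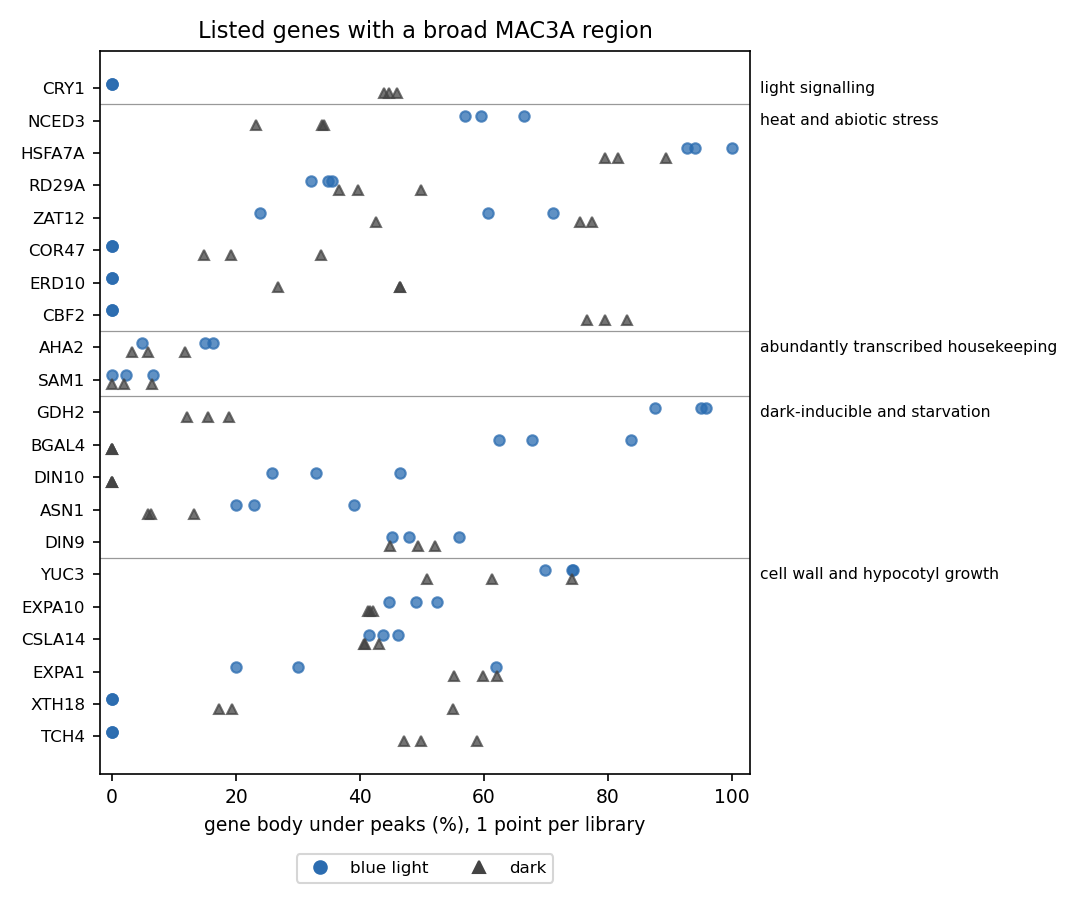
Share of the gene body under peaks (%) for the 21 listed genes with a broad region, 1 point per library, grouped by list. GDH2, BGAL4, DIN10 and ASN1 of the dark-inducible list have all blue libraries above all dark ones, while CBF2, ERD10, COR47, TCH4 and XTH18 have no peaks in blue libraries and peaks in the dark ones.

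The lists of genes used to look through the regions were put together with earlier results of these data known, so their counts are a description and not independent evidence. The dark-inducible and starvation list, of genes induced when carbon runs short, had 5 of 15 members with a broad region, against 1.18% of all protein-coding genes. In 4 of them, GDH2, BGAL4, DIN10 and ASN1, every blue library covered more of the gene than every dark one, which held for 31.5% of the 324 genes with a broad region. The asparagine synthetase gene ASN1 (AT3G47340) had 22.9, 19.9 and 39.0% of its body covered in blue light and 13.3, 6.24 and 5.85% in the dark, and its groups overlapped with lists of equal length and with a minimum −log10 q of 5. With a minimum fold of 3 its direction turned, to -4.42 points. The broad region over ASN1, of 848 bp, had no dark peak, so the dark share came from other peaks over the gene. DIN9 (AT1G67070), a phosphomannose isomerase gene, had 45.2, 55.9 and 47.9% in blue light and 44.8, 52.2 and 49.4% in the dark, which overlap. Over the 5 genes the median share was 49.7% in blue light and 8.44% in the dark, against 32.3% and 25.9% over all 324 genes. These medians belong to different genes. The blue one is that of DIN9, with 48.8% in the dark, and the dark one that of ASN1, with 27.3% in blue light.

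Of 24 heat and abiotic stress genes, 7 (29.2%) had a broad region, against 1.18% of all protein-coding genes. The direction was mixed, with 2 genes higher in every blue library and 4 in every dark one. Over all 324 genes with a broad region these shares were 31.5% and 10.2%. NCED3 (AT3G14440), which encodes a dioxygenase of abscisic acid synthesis, had 66.5, 59.5 and 57.0% of its body covered in blue light and 33.9, 34.2 and 23.2% in the dark. The broad region was 1098 bp long in a gene of 2730 bp, so the blue shares include separate peaks over the gene. Together with HSFA7A, NCED3 was higher in every blue library. RD29A (AT5G52310), a dehydration marker, had 35.5, 34.8 and 32.2% in blue light and 49.8, 36.6 and 39.6% in the dark, and its groups overlapped with a minimum −log10 q of 5. CBF2 and the neighbouring dehydrin genes ERD10 (AT1G20450) and COR47 (AT1G20440) had no peak in the blue libraries and peaks in the 3 dark ones. ERD10 was covered to 26.8, 46.5 and 46.4% in the dark. The zinc finger gene ZAT12 (AT5G59820) had 23.9, 60.7 and 71.2% in blue light and 42.6, 77.5 and 75.4% in the dark, with wide spread in both groups.

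Of 18 cell wall and hypocotyl growth genes, 6 (33.3%) had a broad region, against 1.18% of all protein-coding genes. Of these, 1 was higher in every blue library and 2 in every dark one, against 31.5% and 10.2% of all 324 genes with a broad region. The auxin biosynthesis gene YUC3 (AT1G04610) had 74.2, 74.4 and 69.8% covered in blue light and 74.2, 50.8 and 61.2% in the dark, with 1 summit in every library but dark replicate 1. CSLA14 (AT3G56000), a cellulose synthase-like gene, had 46.1, 41.5 and 43.7% in blue light and 40.7, 40.7 and 43.1% in the dark, and the groups overlapped. These 2 regions had folds of 13.1 to 23.3 in every library. The expansin gene EXPA10 (AT1G26770) had 52.4, 44.7 and 49.1% in blue light and 42.0, 41.2 and 41.7% in the dark, without overlap. EXPA1 (AT1G69530) had 19.9, 30.1 and 61.9% in blue light and 62.2, 55.1 and 59.9% in the dark, with blue replicate 3 at the dark level. TCH4 and XTH18 (AT4G30280), which encode enzymes that remodel xyloglucan, had no peaks in blue light and peaks in all 3 dark libraries, and no XTH18 peak was left with a minimum fold of 3.

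In the other lists 3 genes in all had a broad region. Of 22 light-signalling genes, 10 had a summit of any region in the body, against 2062 of all 27444 protein-coding genes, and 1 (4.55%), CRY1, had a broad region, against 1.18% of all genes. None of 7 genes of the MOS4-associated complex had one. Of 24 abundantly transcribed housekeeping genes, 8 had a summit of any region in the body and 2 (8.33%) had a broad region, both over a small part of the gene. The proton pump gene AHA2 (AT4G30190) had 4.89, 15.0 and 16.3% covered in blue light and 5.83, 11.8 and 3.14% in the dark. The S-adenosylmethionine synthetase gene SAM1 (AT1G02500) had 0, 6.61 and 2.29% in blue light and 0, 6.40 and 2.00% in the dark.

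In 4 genes there were 2 broad regions each. AT4G40040, which RefSeq names as a histone gene of the H3 family, had 40.7, 48.9 and 85.8% of its body covered in blue light and 0, 5.95 and 4.01% in the dark. The neighbouring gene AT4G40030 has the same name in that table, and reads of such copies may be split between them. LBD41 had 61.5, 33.9 and 45.9% in blue light and 10.3, 0 and 0% in the dark. AT1G21400 had 19.8, 42.3 and 9.55% in blue light and no peak in the dark. AUX1 (AT2G38120), which encodes an auxin influx carrier, had 19.9, 17.1 and 47.8% in blue light and 6.60, 13.6 and 20.7% in the dark, and its second region, of 1038 bp, came from blue replicate 3 alone, the only broad region of a single library.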

How the data were processed

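MAC3A ChIP-seq peak lists, 1 per library with replicates not pooled, were used as deposited. The submitters' processing notes name MACS2 2.1.1, Bowtie2, SAMtools and ChIPseeker with build TAIR10; the sources used here do not give parameters or the control behind each list. For each summit the authors' files hold a fold enrichment (a ratio) and −log10 values of p and of a q adjusted within the library, the lowest −log10 q-value being about 2 in every list. The deposited score, a whole number derived from q, was not used.

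Intervals were merged in Python 3.11.15 with pandas 2.3.3; the result was checked against bedtools 2.31.1, and the code was tested on simulated data. Gene bodies, names and biotypes came from the RefSeq table of assembly TAIR10.1, without strand or sequence, so position from the 5′ end was not computed, distance to the nearer end replaced it, and no sequences are shown. All 110 entries of the 6 gene lists were found in the table. Tests between blue light and dark were exact permutation tests with the library as unit. The members and lists were chosen with earlier results of these data known. Genes were named by a rule: the 10 longest regions, the 10 highest shares covered, the 10 with the most summits, up to 8 regions of 1 condition, those at the length limit, genes with 2 regions, up to 6 per list, and 6 per direction by difference in share. Depth is unknown, so no counting intervals are given.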

Additional observations from a re-analysis of the deposited data

How the results depend on the processing

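The alternatives were other length limits, an overlap of at least 100 bp, a minimum −log10 q of 5, a minimum fold of 3, lists of equal length (1342 summits), at least 2 libraries, 50% of the region inside the gene, each library left out, and blue minus dark within replicate numbers. Length under peaks, share of the gene and distance to the gene end kept their direction in each of these that was run. All of these settings chose the regions from blue and dark lists together. In regions defined from the dark lists alone, the dark libraries covered more of the length than the blue ones (82.5 ± 1.59% against 70.6 ± 1.59%, SD, n = 3 each). The number of regions with a peak turned to -6.67 at the fold limit, and summits per region turned to -0.0707 there and to -0.0521 with lists of equal length; the cause was not tested. At 600 bp there were 576 regions, 56 of all blue and no dark and 32 of all dark and no blue libraries, and at 1200 bp 84, 14 and 2, since the limit sets how many regions enter. Regions of all blue and no dark libraries numbered 11 at the q limit and 10 at the fold limit, which left 11 with all dark and no blue libraries. Leaving out each library gave 253 to 282 regions, 17 to 34 blue-only and 10 to 19 dark-only ones. The differences ran from 9.17 to 33.2 regions with a peak, 130 to 194 bp, 4.64 to 8.30 points of the gene, 0.156 to 0.245 summits and -3.26 to -2.21 points of distance. With a replicate block the differences are the same by construction (28.7 regions, 167 bp, 6.23 points, 0.195 summits and -2.93 points; exact sign-flip test, p = 0.25, the smallest it can reach). Same-numbered libraries correlated at 0.0227, 0.0798 and -0.00877 in their deviations over the regions. Such values of peak length cannot show whether equal numbers mark pairs. Of the 39 named genes with groups that did not overlap, 27 kept this at the q limit, 19 at the fold limit and 37 with lists of equal length. The sign turned for EHB1 at the q limit (5.88 points) and at the fold limit for AT3G04140 (-3.67) and ASN1 (-4.42), where the cause was not tested. The settings for distance to the gene end and for single genes were chosen after seeing the data. The planned position from the 5′ end was not run. Depth is unknown, and 3 libraries per condition limit every comparison.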
